A study of Mus musculus with 3 samples.

Results

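The genes described here are interferon-stimulated genes, a set of 38 listed by name with earlier results of these data known. They were read in mouse long-term haematopoietic stem cells at 3 doses of gamma radiation. Of the 38, 37 were matched to a probe set through the array's annotation table, out of 23185 named genes, and Ifi44 is not analysed here. The cells were sorted from mouse bone marrow by surface markers (negative for lineage markers, Flk2 and CD48, positive for Kit, Sca and CD150) and kept overnight in a serum-free medium before exposure. Groups were cells at 0 Gy, called unirradiated, cells at 0.02 Gy (low dose) and cells at 2.5 Gy (high dose), all lysed for RNA 2 hours later, with 1 array per dose. Strain, age and the number of mice behind each array are not given in the labels. The series asks how these stem cells respond within hours to low doses, with the unirradiated cells as reference. With 1 array per dose there is no replicate spread, so nothing below was tested, and the precision of each value is limited by the number of arrays.

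Interferons are secreted proteins that signal through surface receptors and the JAK kinases to STAT and IRF transcription factors. These factors switch on a common set of genes that block viral replication, attack intracellular pathogens and raise antigen presentation. Type I interferons reach most genes of the set through an interferon-stimulated response element (ISRE) near the start of the gene, and interferon gamma through a gamma-activated sequence (GAS). In haematopoietic stem cells interferon signalling is known for driving dormant cells into division, and the GTPase Irgm1 for keeping that response in check. DNA damage can also raise the set, through sensing of DNA or RNA inside the cell.

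Values are the deposited log2 values, so a difference of 1 is 2-fold. Genes averaging 4.55 or more over the 3 arrays (the median named gene) are called past the level minimum; 29 of the 37 members and 11593 genes in all were. No scanner background was used, so which of the lower members exceeded it is unknown. The array medians were 4.60, 4.54 and 4.55 at 0, 0.02 and 2.5 Gy. Differences from unirradiated cells varied with level over all genes, with medians of 0.19 at 0.02 Gy and 0.14 at 2.5 Gy in the top level decile and −0.08 and −0.07 in a middle one. Of 9 listed stem cell markers 8 were measured, and all 8 were past the level minimum. Of 2 markers selected against in the sort, Cd48 was below it, at 3.62, 3.31 and 3.40 at 0, 0.02 and 2.5 Gy. Flt3 (Flk2) was past it, at 4.60, 4.95 and 4.93. None of the 4 T cell markers measured was past it, and 1 of the 4 B cell markers was. Past it were also 2 of 4 NK cell markers (Klrb1c and Nkg7, both highest without radiation), both erythroid markers measured and all 4 megakaryocyte markers, whose summed level was 9.49, 9.73 and 9.89 (log2 of the sum over the list) at 0, 0.02 and 2.5 Gy. The myeloid list had 6 of 7 markers past it, and its summed level was 8.32, 9.09 and 9.27 in the same order. For 4 plasmacytoid dendritic cell markers, of which Bst2 is also a member here, that sum was 7.94, 8.16 and 8.08. Siglech, a defining marker of these cells, was at 5.24, 4.44 and 5.11, lowest at 0.02 Gy. The others went the other way there: Bst2, Tcf4 (5.65, 6.15 and 5.94) and Ccr9 (4.09, 4.30 and 4.55, below the minimum by its mean) were higher than unirradiated. The part of such cells in the values below was not tested. In RNA from many cells at once, fewer cells of a type and less RNA per cell cannot be told apart.

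The sequences below show the 160 bases before the start of 9 members whose dose differences the text describes. They are the IRG GTPase genes that were lowest without radiation, the Trim30 genes, highest at 0.02 Gy, Rsad2, with a wide gap between the doses, and Ifit1 and Ifit3, lower on both irradiated arrays. They come from RefSeq (build GRCm38.p6), 5′ to 3′ on the strand of the gene, and end at the base before the start. Capitals mark matches on either strand to the ISRE core, which is GAAA, any 2 bases and GAAA again, or to the GAS letters TTCNNNGAA; an ISRE on the opposite strand reads TTTC, any 2 bases and TTTC, and overlapping matches run together.
Ifi47, chr11:49076427-49076586, plus strand: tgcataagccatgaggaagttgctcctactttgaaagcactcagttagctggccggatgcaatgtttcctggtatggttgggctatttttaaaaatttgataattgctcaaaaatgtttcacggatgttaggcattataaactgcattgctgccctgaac
Irgm1, chr11:48871421-48871580, minus strand: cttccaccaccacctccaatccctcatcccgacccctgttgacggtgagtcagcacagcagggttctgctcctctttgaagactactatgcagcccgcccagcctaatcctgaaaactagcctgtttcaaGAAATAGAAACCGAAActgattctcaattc
Irgm2, chr11:58214817-58214976, plus strand: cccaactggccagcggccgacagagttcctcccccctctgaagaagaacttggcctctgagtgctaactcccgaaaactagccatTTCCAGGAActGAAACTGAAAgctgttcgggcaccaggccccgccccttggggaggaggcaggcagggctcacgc
Igtp, chr11:58199396-58199555, plus strand: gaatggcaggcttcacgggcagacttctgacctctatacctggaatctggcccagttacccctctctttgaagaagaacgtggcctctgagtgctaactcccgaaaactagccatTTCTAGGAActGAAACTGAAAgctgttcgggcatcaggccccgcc
Trim30a, chr7:104465194-104465353, minus strand: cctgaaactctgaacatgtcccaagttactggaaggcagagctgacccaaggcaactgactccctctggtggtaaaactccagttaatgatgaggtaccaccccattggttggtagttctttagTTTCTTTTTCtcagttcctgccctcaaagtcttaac
Trim30d, chr7:104507850-104508009, minus strand: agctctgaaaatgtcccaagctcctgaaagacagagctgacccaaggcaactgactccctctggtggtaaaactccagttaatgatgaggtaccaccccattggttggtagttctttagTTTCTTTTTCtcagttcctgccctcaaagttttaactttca
Rsad2, chr12:26456453-26456612, minus strand: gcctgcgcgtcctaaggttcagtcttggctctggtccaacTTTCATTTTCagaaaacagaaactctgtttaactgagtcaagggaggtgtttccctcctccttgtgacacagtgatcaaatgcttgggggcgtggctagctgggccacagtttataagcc
Ifit1, chr19:34640729-34640888, plus strand: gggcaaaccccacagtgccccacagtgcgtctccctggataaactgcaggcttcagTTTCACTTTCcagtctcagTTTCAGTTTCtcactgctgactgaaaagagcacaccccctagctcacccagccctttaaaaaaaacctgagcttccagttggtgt
Ifit3, chr19:34583369-34583528, plus strand: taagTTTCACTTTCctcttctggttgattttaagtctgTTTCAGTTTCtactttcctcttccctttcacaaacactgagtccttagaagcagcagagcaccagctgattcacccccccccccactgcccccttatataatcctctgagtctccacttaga

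The Irgm2 and Igtp sequences held a GAS and an ISRE in the same order and spacing, with GAS letters that differ in the unfixed middle, and a shared run of 38 identical bases ends within the GAS. Irgm1 had a pair of overlapping ISRE matches, and Ifi47 held neither motif in this window or in the rest of its table entry. The upstream sequences of Trim30a and Trim30d, neighbours on chromosome 7, were 89.7% identical over 165 alignment columns, with 118 identical bases in a row. Ifit1 and Ifit3 each had 2 ISRE matches on the opposite strand. Over the whole table, whose entries also hold the first bases after each start, 18 of the 29 members with an entry had an ISRE match in at least 1 promoter, against 3.99% of 27025 genes (3.44% of promoters). GAS letters were found for 10 of the 29, against 9.55% of genes. Both motifs were found for 6 members (Irgm2, Igtp, Gbp7, Oas1a, Eif2ak2 and Bst2) and neither for 7, among them Ifi47, Xaf1 and Tap1. In Bst2 the GAS letters overlapped an ISRE match. Mx1, Mx2, Iigp1, Zbp1, Dhx58, Usp18, Oas2 and Parp14 were not matched to a promoter. A match describes letters and is not a shown binding site. The lack of one in these short entries does not show that a gene has no such element.

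As a group, the interferon-stimulated genes stood slightly higher at 0.02 Gy than in unirradiated cells and slightly lower at 2.5 Gy. At 0.02 Gy the median difference from the unirradiated array was 0.22 over the 37 members, against −0.02 over all named genes, and 25 of the 37 were above 0, against 47.4%. Past the level minimum the median of the 29 was 0.22 as well, against 0.04 over the 11593 genes, and 21 of the 29 were above 0, against 54.2% of all genes. At 2.5 Gy the median difference from unirradiated was −0.13 over the 29, against 0.02 over all of them. Only 11 of the 29 were above 0 there, against 53.4% of all genes. These 2 comparisons share the unirradiated array. Taken directly, 2.5 Gy minus 0.02 Gy had a median of −0.21 over the 29, against −0.00 over all genes, with 6 of the 29 above 0, against 49.4%. The sign of each median of the 29 held under quantile normalization, median centring and loess. At 0.02 Gy it was 0.14, 0.28 and 0.15 under these scalings, against −0.00, 0.11 and −0.00 over all genes. At 2.5 Gy against unirradiated it was −0.19, −0.09 and −0.18, against −0.01, 0.07 and −0.00 over all genes. In 2.5 Gy minus 0.02 Gy it was −0.19, −0.22 and −0.20.

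Few single members differed by a large amount. At 0.02 Gy, Ifi47 and Trim30d of the 29 were at least 2-fold higher than unirradiated, against 1.33% of all genes past the level minimum, and none was 2-fold lower (1.14%). At 2.5 Gy, Ifi47 alone was at least 2-fold higher than unirradiated (1.15% of all genes) and none was lower (0.578%). In 2.5 Gy minus 0.02 Gy, Rsad2 and Trim30d were at least 2-fold lower (1.06% of all genes) and none was higher (1.44%). Trim30a, below the level minimum by its mean, also passed 2-fold at 0.02 Gy against both other arrays. With no level minimum the shares of all genes were 1.12% higher at 0.02 Gy than unirradiated and 0.996% lower at 2.5 Gy than at 0.02 Gy. At 1.5-fold, 5 of the 29 were higher at 0.02 Gy than unirradiated (7.5% of all genes) and 1 lower (4.72%). The 5 include Irgm2, whose unirradiated value lay under the level minimum. At 2.5 Gy, 2 were at least 1.5-fold higher than unirradiated (6.07%) and 3 lower (3.44%). In 2.5 Gy minus 0.02 Gy, 4 were at least 1.5-fold lower (5.67%) and 1 higher (5.74%). At both fold sizes these are 0 to 5 genes of 29, so a single gene moves each share a good deal.

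**Figure D1:**
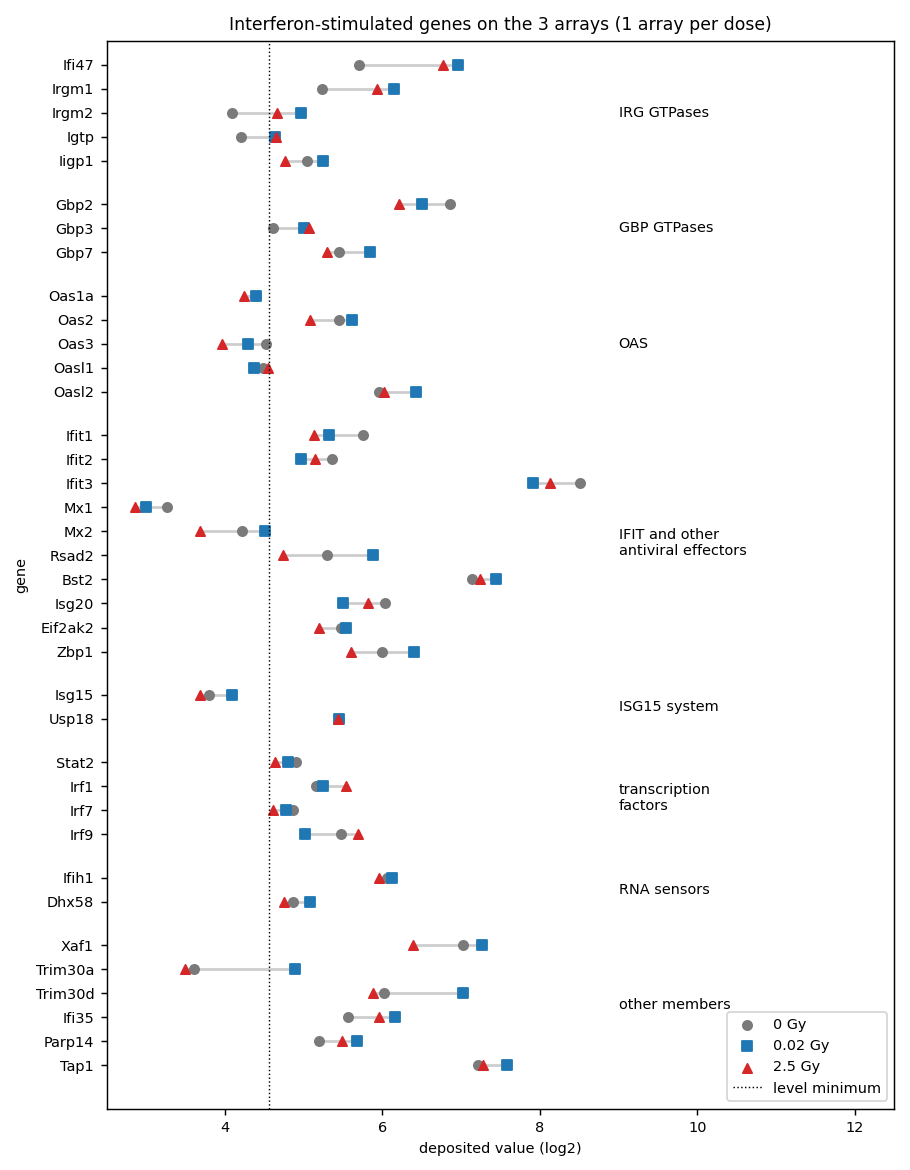
Deposited value (log2, x axis) of each of 37 interferon-stimulated genes (rows, by role) on the 0 Gy (circle), 0.02 Gy (square) and 2.5 Gy (triangle) arrays; grey bars join the lowest and highest value and the dotted line is the level minimum of 4.55. Ifi47 and Irgm1 stand apart on the unirradiated array, and Trim30a and Trim30d on the 0.02 Gy array.

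The order of the arrays within each gene gave a view that does not rest on a fold size. Of the 29 members past the level minimum, 19 had their highest value on the 0.02 Gy array, against 37.4% of all genes, and 3 on the 2.5 Gy array, against 33% of all genes. The lowest value lay on the 2.5 Gy array for 15 of the 29, against 30% of all genes, and on the 0.02 Gy array for 4, against 32.6%. Over all 37 measured members, 22 were highest at 0.02 Gy and 21 lowest at 2.5 Gy, against 33.4% and 33.3% of all named genes. After quantile normalization 17 of 29 were highest at 0.02 Gy (33.8% of all genes) and 18 lowest at 2.5 Gy (32.6%).

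**Figure D2:**
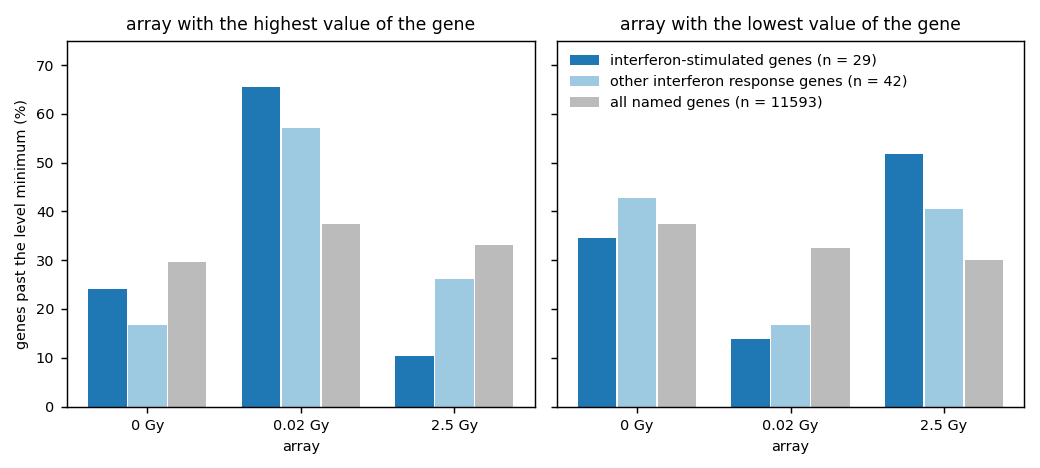
Percent of genes past the level minimum (y axis, from 0) whose highest value (left panel) or lowest value (right panel) lay on each array (x axis), for 29 interferon-stimulated genes, 42 other interferon response genes and all 11593 named genes. The 0.02 Gy array held the highest value of 65.5% of the members, 57.1% of the other interferon response genes and 37.4% of all genes.

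The immunity-related GTPases (IRG proteins), which act on the membranes of compartments that hold intracellular pathogens, were higher than unirradiated in 5 of 5 genes at 0.02 Gy and in 4 of 5 at 2.5 Gy, against 47.4% and 46.6% of all named genes. Ifi47, a member of this family, was at 5.70, 6.96 and 6.77 at 0, 0.02 and 2.5 Gy. Irgm1, a regulatory member that protects host membranes and is needed for stem cell maintenance, was at 5.23, 6.15 and 5.92. Irgm2, another regulatory member, was at 4.09, 4.96 and 4.66. In all 3 genes the unirradiated array was the lowest and the 0.02 Gy array the highest. The differences from unirradiated at 0.02 Gy were 1.26 for Ifi47 (2.39-fold), 0.92 for Irgm1 (1.89-fold) and 0.87 for Irgm2. At 2.5 Gy they were 1.07, 0.69 and 0.57 in the same order. After loess Ifi47 was 0.96 higher at 2.5 Gy than unirradiated, short of 2-fold, and 1.11 higher at 0.02 Gy. Igtp, the third regulatory member, lay below the level minimum by its mean, at 4.20, 4.64 and 4.65. Iigp1, an effector that loads onto parasite vacuoles, had another order, with 5.04, 5.25 and 4.77. The median difference over the 5 was 0.87 at 0.02 Gy and 0.57 at 2.5 Gy. The 4 genes that were lowest without radiation lie on chromosome 11 in GRCm38.p6, and Iigp1 does not. S100a8 and S100a9, markers of the myeloid list, also had their lowest value on the unirradiated array (5.57, 6.87 and 6.81 for S100a8, 6.82, 7.94 and 8.38 for S100a9). So did Itgam (4.72, 5.15 and 4.73), Elane (4.96, 5.89 and 5.08) and Mpo (5.29, 5.45 and 5.99). In all, 5 of the 7 markers of that list were lowest without radiation, against 30.8% of all named genes. The rest had other orders: Ly6g was highest without radiation (5.06, 4.33 and 4.21) and Csf1r lowest at 0.02 Gy (4.85, 4.58 and 5.03). The part of such cells in the GTPase values was not tested.

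The guanylate-binding proteins are larger GTPases that assemble on pathogens and their vacuoles, and their 3 genes had 3 different orders. Gbp2 was at 6.86, 6.50 and 6.21 at 0, 0.02 and 2.5 Gy, highest without radiation and 0.65 lower at 2.5 Gy. Gbp3 was at 4.61, 5.01 and 5.07, lowest without radiation. Gbp7 was at 5.45, 5.84 and 5.30, highest at 0.02 Gy and 0.54 lower at 2.5 Gy than there. These genes have close copies in a cluster on chromosome 3, and no probe sequences were used here, so how far each probe set reads its relatives is not known. The same holds for the IRG, OAS, IFIT, Mx and Trim30 genes.

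The IFIT genes encode proteins that bind foreign RNA and block its translation, and all 3 were highest without radiation. Ifit3 was at 8.51, 7.91 and 8.12 at 0, 0.02 and 2.5 Gy, Ifit1 at 5.76, 5.32 and 5.13, and Ifit2 at 5.36, 4.96 and 5.14. For Ifit3 the difference from unirradiated was −0.59 at 0.02 Gy and −0.38 at 2.5 Gy, and after quantile normalization −0.84 and −0.60. Isg20, an exonuclease of viral RNA, had the same order as Ifit2 and Ifit3, with 6.03, 5.50 and 5.82. These genes stood against the direction of the group at the low dose.

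Of the other antiviral effectors, Rsad2, Zbp1, Mx2 and Eif2ak2 were highest at 0.02 Gy and lowest at 2.5 Gy. Rsad2, which encodes viperin, an enzyme that makes a chain-terminating nucleotide, was at 5.29, 5.88 and 4.74. It was 1.13 lower at 2.5 Gy than at 0.02 Gy (2.20-fold), and the unirradiated value lay between them. Zbp1, a sensor of left-handed nucleic acid that can trigger necroptosis, was at 5.99, 6.39 and 5.60, with 0.80 between the doses. Mx2, a dynamin-like GTPase, lay below the level minimum, at 4.22, 4.50 and 3.68, and Mx1 did so at between 2.86 and 3.26, highest without radiation. Eif2ak2, which encodes the RNA-activated kinase PKR, was at 5.47, 5.54 and 5.19. Bst2, the virus tether at the cell surface, was at 7.13, 7.44 and 7.24, and its difference at 2.5 Gy turned negative (−0.07 after quantile normalization, −0.05 after loess). Against unirradiated, the 10 IFIT and other antiviral genes had a median difference of −0.10 at 0.02 Gy and −0.39 at 2.5 Gy, and 1 of the 10 was above 0 at 2.5 Gy, against 46.6% of all named genes.

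The OAS family includes sensors of double-stranded RNA, several of which make short oligoadenylates that activate RNase L. Oas2 was at 5.45, 5.62 and 5.08 at 0, 0.02 and 2.5 Gy, and Oasl2 at 5.95, 6.43 and 6.02. Both were highest at 0.02 Gy, by 0.54 and 0.41 over the 2.5 Gy array. Oas3 (4.52, 4.29 and 3.97), Oas1a (4.39, 4.39 and 4.24) and Oasl1 (4.49, 4.36 and 4.54) lay below the level minimum. The median over the 5 was −0.00 at 0.02 Gy and −0.16 at 2.5 Gy against unirradiated, and the first turned to 0.07 or 0.08 under the 3 scalings.

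Among genes that control the response, the difference between arrays was small for Usp18 and widest for Irf9. Usp18, which removes the ubiquitin-like protein ISG15 from its targets and damps receptor signalling, had a range of 0.0093 over the 3 arrays, at 5.45, 5.45 and 5.44. Isg15 itself lay below the level minimum at 3.80, 4.09 and 3.69. Stat2 and Irf9 encode partners in the factor that binds the ISRE. Stat2 was at 4.90, 4.80 and 4.63, and Irf9 at 5.47, 5.02 and 5.69, lowest at 0.02 Gy and 0.67 higher at 2.5 Gy than there. Irf1, an early activator in interferon gamma signalling, was at 5.16, 5.24 and 5.54, and Irf7, the main amplifier of type I interferon, at 4.86, 4.77 and 4.61. The cytosolic RNA sensors Ifih1 (6.06, 6.13 and 5.96) and Dhx58 (4.87, 5.08 and 4.75) were highest at 0.02 Gy and lowest at 2.5 Gy by small margins, and the low-dose difference of Ifih1 turned to −0.03 under quantile normalization and loess. In the transcription factor group 1 of 4 members was above 0 at 0.02 Gy and 2 of 4 at 2.5 Gy.

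The remaining 6 members were all above 0 at 0.02 Gy and all below 0 in 2.5 Gy minus 0.02 Gy, where 47.4% and 49.9% of all named genes were above 0. Trim30d was at 6.01, 7.02 and 5.88 at 0, 0.02 and 2.5 Gy. Trim30a, which restrains NF-κB signalling from Toll-like receptors, was at 3.61, 4.89 and 3.50. The 0.02 Gy array stood alone for both genes, by 1.01 and 1.28 over unirradiated, and the 2.5 Gy array was 1.14 and 1.39 lower than the 0.02 Gy array. How far the probe sets of these neighbours read each other is not known. After quantile normalization and loess Trim30d was 0.88 higher at 0.02 Gy than unirradiated, short of 2-fold. Xaf1, a promoter of cell death that binds the inhibitor XIAP, was at 7.02, 7.26 and 6.39, 0.88 lower at 2.5 Gy than at 0.02 Gy. Ifi35 was at 5.56, 6.16 and 5.96, Parp14, an ADP-ribosyltransferase, at 5.19, 5.68 and 5.49, and Tap1, a subunit of the transporter that feeds peptides to class I antigen presentation, at 7.22, 7.58 and 7.27. These last 3 were lowest without radiation, except that Tap1 turned lowest at 2.5 Gy under quantile normalization and loess.

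**Figure D3:**
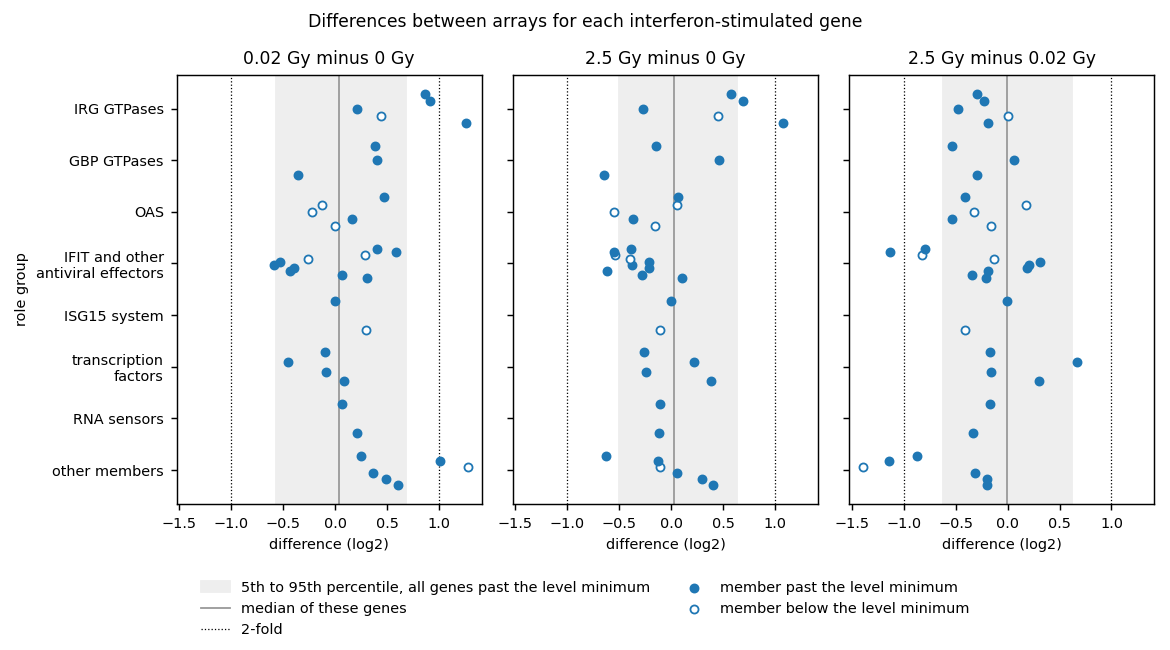
Difference between arrays (log2, x axis) for each member (points, open where below the level minimum) by role group (y axis) in the 3 comparisons; the grey band runs from the 5th to the 95th percentile of all 11593 genes past the level minimum. In 0.02 Gy minus 0 Gy that band runs from −0.57 to 0.68, and Ifi47 at 1.26, Trim30d at 1.01 and Trim30a at 1.28 (open) lie beyond the 2-fold line.

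Members with and without an ISRE match were set side by side as a description. The 18 with a match hold close copies such as Trim30a and Trim30d, so they are not 18 separate observations. The median low-dose difference was 0.30 over the 18, and 12 of them were above 0. Over the 11 without a match the median was 0.08, with 6 above 0, against 47.4% of all named genes. At 2.5 Gy against unirradiated the median was −0.14 with a match and 0.06 without. Above 0 there were 5 of 18 and 7 of 11, against 46.6% of all named genes. In 2.5 Gy minus 0.02 Gy the medians were −0.26 and −0.15. For GAS letters the low-dose medians were 0.20 over the 10 members with them and 0.25 over the 19 without. Ifit1 and Ifit3, with 2 ISRE matches each, were lower at 0.02 Gy. Ifi47, with none in its promoter entry, was 1.26 higher, next to Trim30a, with a match, at 1.28.

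The other genes of the pathway were read from fixed lists, also chosen with earlier results of these data known. Among 9 ligand genes measured, none was 2-fold higher or lower. By comparison and direction, 0.578% to 1.44% of all genes past the level minimum were, so 0 in a short list is near that share. Ifnb1, the interferon beta gene, lay far below the level minimum at 2.65, 2.61 and 2.60 at 0, 0.02 and 2.5 Gy. Ifnl2 (8.54, 7.65 and 8.20) and Ifna5 (6.46, 5.90 and 6.15), genes of interferon families with close copies, were lowest at 0.02 Gy. Their relatives Ifnl3 (7.61, 7.73 and 7.30) and Ifna4 (7.41, 7.63 and 7.17) were highest there. The low-dose difference of Ifnl3 turned to −0.13 under quantile normalization and −0.10 under loess. Ifne was at 3.17, 3.19 and 3.97, below the minimum by its mean. The ligands past the level minimum were all 5 below 0 at 2.5 Gy against unirradiated, where 53.4% of all genes were above 0. Their median was −0.31, against 0.02 over all genes. These are Ifna4, Ifna5 and Ifnz on chromosome 4 and Ifnl2 and Ifnl3 on chromosome 7. As genes of families with close copies, they are not 5 separate observations. How far each probe set reads its relatives is not known.

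None of the 6 receptor genes was 2-fold higher or lower, near the 0.578% to 1.44% of all genes past the level minimum. Ifngr1, the ligand-binding chain for interferon gamma, was at 5.51, 5.84 and 6.28 at 0, 0.02 and 2.5 Gy, 0.77 higher at 2.5 Gy than unirradiated. The type I receptor chains were at 5.93, 5.78 and 6.21 for Ifnar1 and 7.56, 8.04 and 7.50 for Ifnar2, and Il10rb, shared by interferon lambda and interleukin receptors, at 5.46, 5.69 and 5.96. So Ifnar2 was highest at 0.02 Gy and the other named chains at 2.5 Gy. Among the kinases and STATs, Jak2 was at 6.21, 7.01 and 6.43, Jak1 at 7.58, 7.84 and 7.66, and Tyk2 at 4.49, 4.72 and 4.89. Stat3 differed by no more than 0.10 between arrays, at 6.90, 6.97 and 6.87.

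In the sensing list, 0 of 9 genes past the minimum were 2-fold higher or lower in any comparison (0.578% to 1.44% of all genes). Irf5, a factor downstream of Toll-like receptors, came closest, at 4.39, 4.15 and 5.15 at 0, 0.02 and 2.5 Gy. Only its 2.5 Gy value lay above the level minimum. The RNA sensor RIG-I (Ddx58 in the annotation) was at 5.78, 6.39 and 5.68, highest at 0.02 Gy like its relative Dhx58. Ifih1 was also highest there as deposited, but not under quantile normalization or loess. Irf3, which switches on interferon beta, was at 5.02, 5.62 and 5.59, lowest without radiation. Of 12 negative regulators none was 2-fold higher or lower, near the same shares of all genes. The widest were Pias1 (6.35, 6.99 and 6.72), an inhibitor of STAT binding to DNA, and the ribonuclease H2 subunit genes Rnaseh2a (5.99, 5.74 and 6.26) and Rnaseh2b (4.75, 5.25 and 4.85).

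A further list of 53 other interferon response genes, 42 of them past the level minimum, was set beside the members. Its median difference at 0.02 Gy was 0.22 over the 42, with 32 above 0 (54.2% of all genes). Over all 53 that median was 0.20, and it was 0.08 after quantile normalization and 0.06 after loess. At 2.5 Gy the median against unirradiated was −0.02 over the 42, with 21 above 0 (53.4% of all genes). The median over all 53 was 0.03 and turned negative under quantile normalization (−0.05) and loess (−0.08). In 2.5 Gy minus 0.02 Gy the median was −0.14 over the 42, against −0.00 over all genes, with 14 above 0 (49.4%). There 2 of the 42, Psme2 and Parp9, were at least 2-fold lower (1.06% of all genes) and none was higher (1.44%). Psme2, a proteasome activator subunit of antigen processing, was at 6.51, 7.31 and 5.79, 1.51 lower at 2.5 Gy than at 0.02 Gy. Gbp8, a guanylate-binding protein gene with a mean below the level minimum, was at 3.75, 5.61 and 4.07, so the 0.02 Gy array stood alone. Cxcl10, a chemokine gene that NF-κB also drives, had another order, at 4.42, 5.24 and 5.88. It was the only gene of the 42 at least 2-fold higher at 2.5 Gy than unirradiated (1.15% of all genes). Its unirradiated value lay under the level minimum. None of the 42 was 2-fold higher at 0.02 Gy than unirradiated (1.33% of all genes).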

How the data were processed

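The deposited values are log2 values, 1 per probe set and array, made by the authors for 25206 probe sets; the scale was read from the values, which run from 1.55 to 12.4. Partek was used in some role, per the submitters' processing notes; how the arrays were normalized or summarised is not given in the sources used here. Biotin-labelled cDNA was made with an Affymetrix whole-transcript kit, per the labels' protocols. The annotation table gave 23185 probe sets 1 symbol each; 2021 had none and were not used. Differences were taken gene by gene in 3 comparisons, with no test, since each dose has 1 array. Members and lists were chosen with earlier results of these data known. Text names all members, and from each pathway list the 3 genes with the widest range plus a fixed few. Ifna4, Ifnl3 and Parp9 were named in addition. Other settings tried were other level minima (none, or the 75th percentile), 3 scalings (quantiles, medians, loess with a span of 0.3), other fold sizes and list means. Python 3.11.15, pandas 2.3.3 and statsmodels 0.14.6 were used. Counting was tested on simulated data.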

Additional observations from a re-analysis of the deposited data

How the results depend on the processing

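No paired analysis was possible because a dose is a single array, and for the same reason no array could be left out. Median differences of the members moved by more than 0.1 in 1 case: with the minimum raised to the 75th percentile, the low-dose median was 0.38 over 14 members. The count of members at least 2-fold higher at 0.02 Gy than unirradiated, 2 as reported, was 1 after quantile normalization and 1 after loess, 5 at 1.5-fold and 0 at 3-fold. For 2.5 Gy against unirradiated the count of 1 higher became 0 after loess, 2 at 1.5-fold and 0 at 3-fold. The 2 members lower at 2.5 Gy than at 0.02 Gy became 1 at the 75th percentile minimum, 4 at 1.5-fold and 0 at 3-fold. Counts of 0 became 1 (lower, 0.02 Gy against unirradiated), 3 (lower, 2.5 Gy against unirradiated) and 1 (higher, 2.5 Gy against 0.02 Gy) at 1.5-fold. Counts that depend on fold size do so by construction. Settings chosen after seeing the data were a minimum on both arrays, which moved no median by over 0.1, and the counts by array order under other settings, with 17 to 22 members highest at 0.02 Gy and 14 to 21 lowest at 2.5 Gy. Of 333 member values under the 3 scalings, 28 moved by more than 0.1, by at most 0.25. A sign turned for 7 members, in differences of at most 0.11. Over all genes past the minimum, higher genes were 53.8% of those past 2-fold at 0.02 Gy, 64.9% after median centring and 44.7% after quantile normalization.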

Other observations

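In 2.5 Gy minus 0.02 Gy, 10 of the 42 other interferon response genes past the level minimum were at least 1.5-fold lower and 2 higher, against 5.67% and 5.74% of all genes. The genes named here were chosen after their values were seen. Parp9, which encodes a partner of a ubiquitin ligase in interferon signalling, was at 4.96, 5.64 and 4.63 at 0, 0.02 and 2.5 Gy. Pml, the organiser of nuclear bodies, was at 5.64, 6.51 and 5.55, and Sp100, another protein of those bodies, at 6.48, 6.85 and 6.15. Ifi203, of the family of DNA-binding interferon-inducible proteins, was at 7.22, 7.99 and 7.08, and Samd9l, an antiviral and growth-restraining gene, at 5.11, 5.94 and 5.30. In each of these genes the 0.02 Gy array was the highest. Ogfr had the opposite order, lowest at 0.02 Gy, at 6.09, 5.47 and 6.14. Whether these values reflect the dose or the single arrays cannot be told apart in this design.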
